A study of Mus musculus with 4 samples.

Results

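The 30 genes described here carry pyruvate into mitochondria, turn the tricarboxylic acid (TCA) cycle, and make or use glutamate and glutamine beside it. They were taken by name: 9 genes of pyruvate entry, 12 of the oxidative cycle, 8 of the NADP-linked isocitrate dehydrogenases, the aminotransferases, glutamine use and cytosolic malate dehydrogenase, and Acod1, which makes itaconate. All 30 were listed, among 15114 genes with an Entrez number. The libraries were 2 from PERK KO macrophages (LysMcre x Eif2ak3 fl/fl) and 2 from PERK WT macrophages (Eif2ak3 fl/fl, with no LysMcre in the label), all from mice on the C57BL/6 strain, whose age is not given. PERK, encoded by Eif2ak3, is the endoplasmic reticulum kinase that phosphorylates eIF2α, and LysMcre drives Cre recombinase from the lysozyme 2 gene of myeloid cells. Both genotypes were grown from bone marrow with M-CSF at 20 ng/mL for 7 days and then given the cytokine IL-4 (20 ng/mL, 24 h), in medium with glucose and L-glutamine. Unstimulated macrophages are not analysed here. The comparison asks how far these transcripts depend on PERK in macrophages under IL-4, in a study of PERK as a regulator of macrophage metabolism.

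Pyruvate from glycolysis crosses the inner mitochondrial membrane through the MPC carrier and is oxidised to acetyl-CoA by the pyruvate dehydrogenase complex, which pyruvate dehydrogenase kinases switch off. Acetyl-CoA joins oxaloacetate to form citrate, and the cycle then passes through isocitrate, alpha-ketoglutarate, succinyl-CoA, succinate, fumarate and malate. Glutamine supplies the cycle at alpha-ketoglutarate, by way of glutamate. IL-4-activated macrophages are known for an intact, oxidative cycle, and alpha-ketoglutarate is also a substrate of the dioxygenases that demethylate histones and DNA.

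Levels are in FPKM, which divides fragments by gene length and library total and so allows comparison between genes. No counts were given and depth is unknown, which leaves the spread between libraries as the measure of precision. Of all FPKM, genes with an Entrez number held 54.8% and 41.1% in PERK KO replicates 1 and 2, against 58.9% and 57.6% in PERK WT. PERK KO replicate 2 also listed 29618 features found in no other library, against 1563 to 3514 in the others. The log2 change of the median gene, PERK KO minus PERK WT, was -0.14 as deposited, and scaling the libraries by median ratios brought it to -0.01. Changes below are therefore log2 differences on the log2(FPKM + 1) scale, given relative to that median gene, with 95% intervals from limma that treat the median as fixed. The p-values test the deposited difference, which includes the shift of the median gene, unless they are called scaled. Eif2ak3 (Entrez 13666, chromosome 6, 70844484 to 70905241, with gene positions here and later from RefSeq on GRCm38.p6) stood at 6.55 and 4.88 FPKM in PERK KO, against 10.9 and 8.88 FPKM in PERK WT. Both knockout libraries were lower, with a change of -0.56 (limma adjusted p = 0.776), and values per gene cannot show which exons were lost. Macrophage genes were abundant in both genotypes. The 10 identity genes summed to 1614 to 1911 FPKM in PERK KO, against 2078 to 2545 FPKM in PERK WT, and Lyz2 (253 and 201 FPKM in PERK KO, against 627 and 699 FPKM in PERK WT, limma adjusted p = 0.413) was among them. The lower sums of PERK KO include the lower Lyz2. For every other identity gene the genotypes overlapped after median-ratio scaling. Markers of dendritic cells, neutrophils, mast cells and basophils, lymphocytes, stromal cells and erythroid cells stayed near 0. No single one of these 42 genes passed 1.93 FPKM in any library.

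No gene of the module passed the test. Of the 30 genes, 28 had a mean of at least 1 FPKM and were tested, and limma called 0 higher and 0 lower at an adjusted p of 0.05. Among all 9501 tested genes, limma called 0.0211% lower (2 genes) and 0% higher. Named after their values were seen, these 2 were Rpl3 and Smdt1, which were listed in neither knockout library. Their calls rest on unlisted values taken as 0, and whether the transcripts were absent from the cells was not tested. Among genes listed in all 4 libraries limma called 0. At an unadjusted p under 0.05, 1 of the 28 was lower and 0 were higher, against 3.52% lower and 0.705% higher, or 4.22% in either direction, of all tested genes. After median-ratio scaling the 28 again gave 1 lower and 0 higher, against 1.4% lower and 1.65% higher, or 3.05% in either direction, of all tested genes. These shares of the module are near the background. The median change of the 28 was -0.06 relative to the median gene, with 22 below it and 6 above, where by construction 50% of all genes lie below. Standard errors of the 28 changes lay between 0.14 and 0.49, with a median of 0.17.

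**Figure D1:**
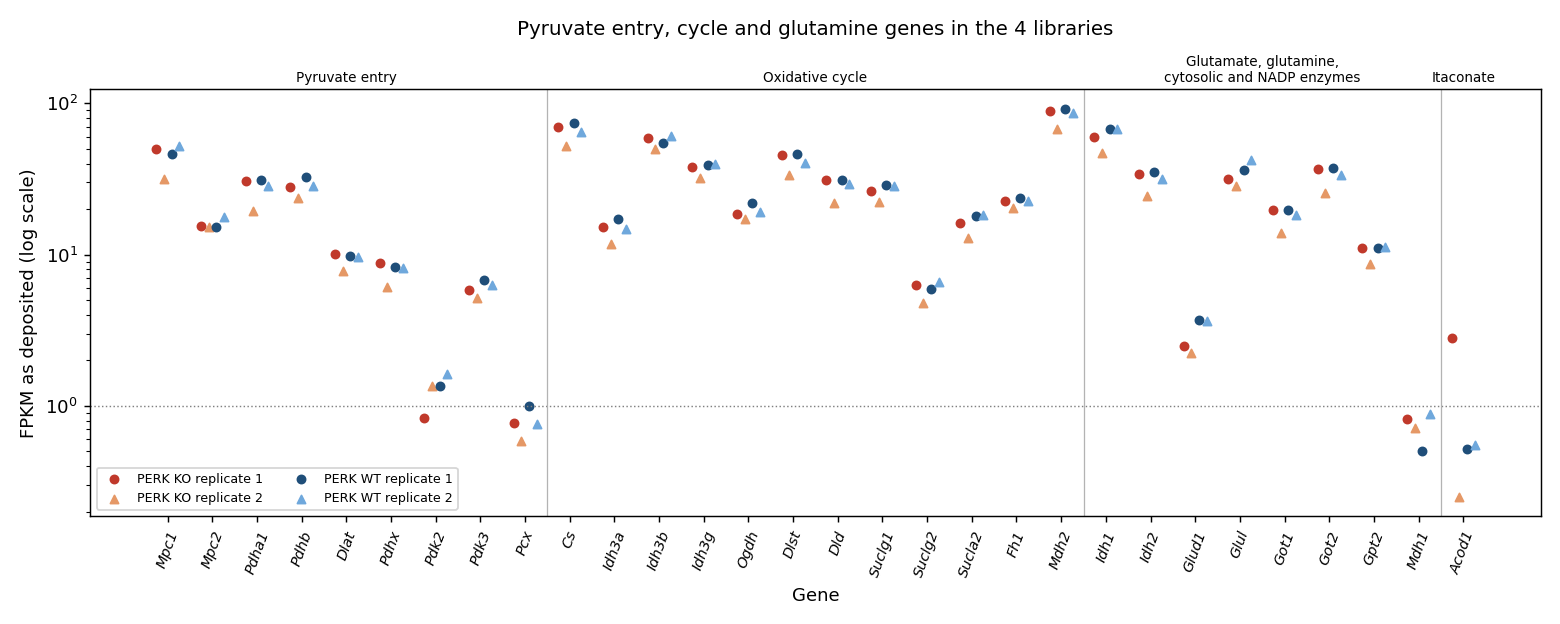
FPKM as deposited (log axis) of the 30 genes in each of the 4 libraries, ordered by role, with PERK KO replicates left of PERK WT replicates and a dotted line at 1 FPKM, the minimum mean for a test. Mdh2, at 67.4 to 92.2 FPKM, tops the plot, while Pcx, Mdh1 and most Acod1 values lie at or under the dotted line.

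The levels themselves span a wide range, as the plot of FPKM by library shows. Mdh2, the mitochondrial malate dehydrogenase that regenerates oxaloacetate, was the most abundant transcript of the module in every library, with 89.3 and 67.4 FPKM in PERK KO, against 92.2 and 86.7 FPKM in PERK WT. It made up 11.3% and 11.1% of the module's summed FPKM in PERK KO, against 11.3% and 10.9% in PERK WT. The summed FPKM of the 30 genes was 788 and 608.6 in PERK KO, against 817 and 793.6 in PERK WT. After median-ratio scaling the sums were 782 and 678 in PERK KO, against 779 and 753 in PERK WT, so the lower sum belonged to PERK KO replicate 2. In these bulk libraries, fewer cells that use a gene and less RNA of it per cell cannot be told apart.

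At pyruvate entry, none of the 8 tested genes passed limma and their median change was -0.08. The carrier is a pair of proteins. Mpc1 (Entrez 55951, chromosome 17, 8283787 to 8297667) measured 50.1 and 31.7 FPKM in PERK KO, against 46.01 and 52.1 FPKM in PERK WT. Its partner Mpc2 measured 15.4 and 15.2 FPKM in PERK KO, against 15.2 and 17.8 FPKM in PERK WT. Only PERK KO replicate 2 was low for Mpc1, and PERK KO replicate 1 lay inside the PERK WT range, so the groups overlapped. The change of Mpc1 was -0.15 (95% interval -0.71 to 0.41, limma adjusted p = 0.776). With each library left out in turn, it ranged over -0.40 to 0.09. For Mpc2 the change was 0.04 (95% interval -0.31 to 0.39), with a range of -0.07 to 0.14 over the same 4 fits.

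The pyruvate dehydrogenase complex is built from E1 subunits (Pdha1 and Pdhb), which decarboxylate pyruvate, the E2 acetyltransferase Dlat, the E3-binding protein Pdhx and the E3 dehydrogenase Dld. Pdha1 measured 30.5 and 19.4 FPKM in PERK KO, against 30.9 and 28.4 FPKM in PERK WT. Pdhb measured 28.1 and 23.7 FPKM in PERK KO, against 32.6 and 28.5 FPKM in PERK WT. The E1 subunits were matched in abundance, and only PERK KO replicate 2 was low for Pdha1. Dlat measured 10.02 and 7.83 FPKM in PERK KO, against 9.76 and 9.65 FPKM in PERK WT, and Pdhx 8.85 and 6.14 FPKM in PERK KO, against 8.32 and 8.15 FPKM in PERK WT. In every library Dlat and Pdhx were less abundant than the E1 subunits. Their changes were -0.13 for Pdha1 (95% interval -0.67 to 0.40), -0.09 for Pdhb (-0.48 to 0.30), 0.02 for Dlat (-0.36 to 0.40) and 0.0010 for Pdhx (-0.44 to 0.44). None of the 5 genes of the complex, Dld included, separated the genotypes after median-ratio scaling.

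Among the regulators and the carboxylase, only Pdk3 kept the genotypes apart. Pdk3, a kinase that inhibits the complex, measured 5.87 and 5.13 FPKM in PERK KO, against 6.75 and 6.30 FPKM in PERK WT. The PERK KO values of Pdk3 were all under the PERK WT values, scaled or not, and the change was -0.07 (95% interval -0.42 to 0.27). Its limma unadjusted p was 0.187 as deposited and 0.475 after scaling. Pdk2, another such kinase, measured 0.83 and 1.36 FPKM in PERK KO, against 1.35 and 1.63 FPKM in PERK WT, and here PERK KO replicate 1 was the low library. Pcx, the carboxylase that makes oxaloacetate from pyruvate, stayed at or under 1 FPKM with 0.77 and 0.59 FPKM in PERK KO, against 1.00 and 0.76 FPKM in PERK WT, and was not tested. Another protein-coding gene overlaps Pdha1 (Map3k15) and Pcx (Lrfn4) in the annotation, as Nop56 does Idh3b and Prox2 does Dlst, and whether their fragments were kept apart is not stated.

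In the oxidative cycle, limma called 0 of 12 genes, and all 12 changes lay between -0.17 and 0.05. Cs, citrate synthase, opens the cycle and measured 69.7 and 52.4 FPKM in PERK KO, against 74.05 and 64.5 FPKM in PERK WT. Its libraries overlapped, with a change of -0.05 (95% interval -0.52 to 0.41). NAD-linked isocitrate dehydrogenase, which yields alpha-ketoglutarate inside mitochondria, has the catalytic subunit Idh3a and the partner subunits Idh3b and Idh3g. Idh3a measured 15.1 and 11.7 FPKM in PERK KO, against 17.1 and 14.9 FPKM in PERK WT. Idh3b measured 58.96 and 49.5 FPKM in PERK KO, against 54.6 and 60.7 FPKM in PERK WT. Idh3g measured 37.7 and 32.3 FPKM in PERK KO, against 38.97 and 39.5 FPKM in PERK WT. The catalytic subunit had the lowest transcript level of the 3 in every library, and none of the 3 separated the genotypes after scaling. Their changes were -0.11, 0.05 and -0.03, in that order.

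From alpha-ketoglutarate the cycle passes the oxoglutarate dehydrogenase complex, with Ogdh as E1, Dlst as E2 and Dld as the E3 subunit shared with pyruvate dehydrogenase. Ogdh measured 18.6 and 17.2 FPKM in PERK KO, against 22.1 and 19.00 FPKM in PERK WT. Dlst measured 45.5 and 33.5 FPKM in PERK KO, against 46.5 and 40.1 FPKM in PERK WT. Dld measured 31.1 and 21.8 FPKM in PERK KO, against 31.1 and 29.4 FPKM in PERK WT. Dlst and Dld were each lowest in PERK KO replicate 2, while PERK KO replicate 1 matched PERK WT. The changes were -0.04 (95% interval -0.40 to 0.31), -0.0025 (-0.47 to 0.46) and -0.07 (-0.53 to 0.40).

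Succinyl-CoA synthetase, which makes ATP or GTP from succinyl-CoA, held the lowest change of the cycle. Its ATP-forming beta subunit Sucla2 (Entrez 20916, chromosome 14, 73552786 to 73596144) measured 16.2 and 12.9 FPKM in PERK KO, against 18.1 and 18.4 FPKM in PERK WT. The genotypes did not overlap, scaled or not, with PERK KO the lower. The change of Sucla2 was -0.17 (SE 0.16, 95% interval -0.55 to 0.21). Its limma unadjusted p was 0.0905 as deposited and 0.153 after scaling, and its adjusted p was 0.776. Suclg1, the alpha subunit that both forms share, measured 26.5 and 22.2 FPKM in PERK KO, against 28.8 and 28.2 FPKM in PERK WT, again without overlap before and after scaling, and its change was -0.08 (-0.45 to 0.28). The GTP-forming beta subunit Suclg2 measured 6.31 and 4.76 FPKM in PERK KO, against 5.89 and 6.55 FPKM in PERK WT and overlapped, with a change of -0.01 (-0.42 to 0.39). Within each library, the ratio of Suclg2 to Sucla2 FPKM, which no scaling between libraries affects, was 0.389 and 0.368 in PERK KO, against 0.325 and 0.356 in PERK WT. The higher ratios were those of PERK KO. With 2 libraries against 2 the smallest two-sided p that an exact permutation test allows is 0.333, which this ratio reached, and the value adjusted over the 13 ratios computed was 1.

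The last steps of the cycle lay near the median gene. Fh1, fumarase, measured 22.6 and 20.2 FPKM in PERK KO, against 23.7 and 22.7 FPKM in PERK WT, and its change of 0.03 had the smallest standard error of the module, 0.14 (95% interval -0.32 to 0.37). Mdh2 had a change of -0.06 (-0.52 to 0.40). The 95% intervals of these 2 genes thus hold neither a loss nor a gain of more than 0.52 on the log2 scale.

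**Figure D2:**
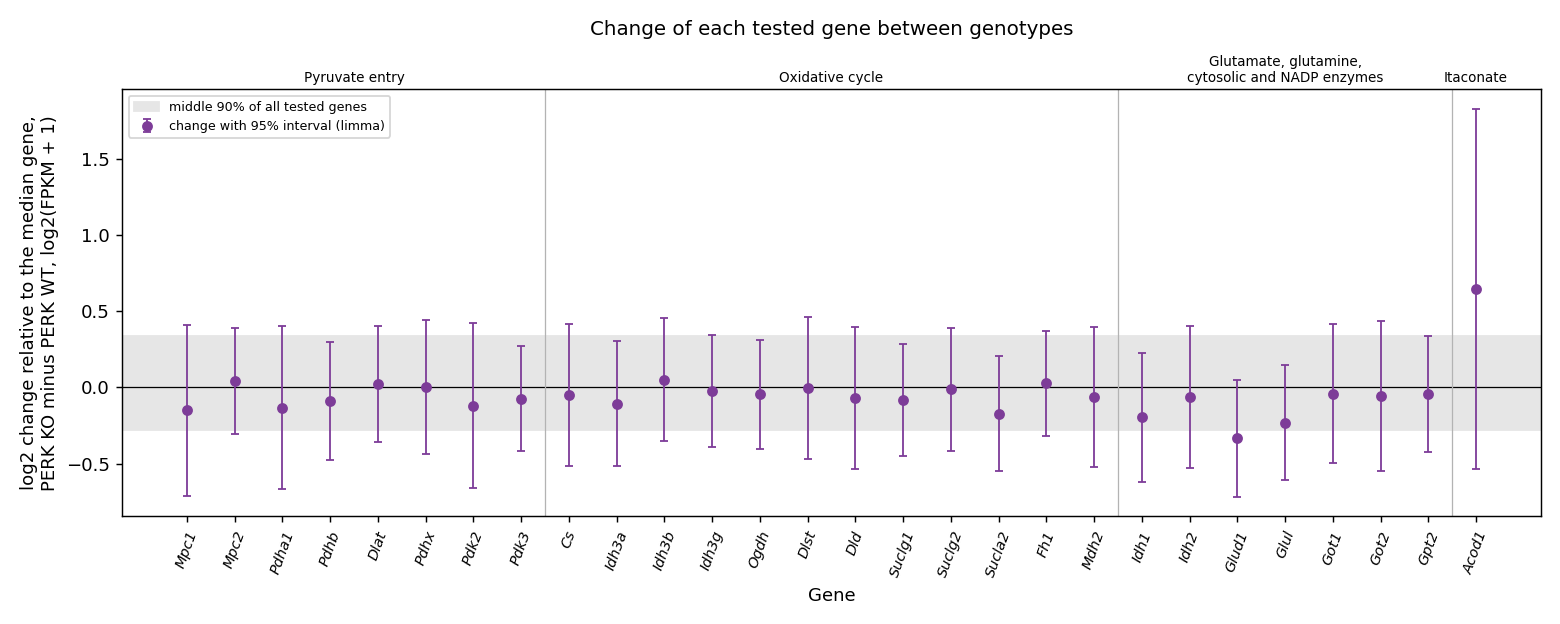
Log2 change of the 28 tested genes relative to the median gene, PERK KO minus PERK WT, on the log2(FPKM + 1) scale, with limma 95% intervals (n = 2 libraries each) and the band between percentiles 5 and 95 of all 9501 tested genes (-0.28 to 0.34). Glud1 at -0.33 lies just under the band and Acod1 at 0.65 above it, and all 28 intervals reach across 0.

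The lowest change of the module belonged to Glud1 (Entrez 14661, chromosome 14, 34310727 to 34345033), glutamate dehydrogenase, which turns glutamate into alpha-ketoglutarate in mitochondria. Glud1 measured 2.50 and 2.22 FPKM in PERK KO, against 3.71 and 3.62 FPKM in PERK WT, and averaged 2.36 ± 0.20 FPKM in PERK KO and 3.67 ± 0.06 FPKM in PERK WT (SD, n = 2 each). Its scaled levels were 2.48 and 2.47 FPKM in PERK KO, against 3.54 and 3.43 FPKM in PERK WT. The 2 knockout libraries were alike, the 2 wild-type libraries were alike, and the groups did not overlap. Its change was -0.33 (SE 0.16, 95% interval -0.72 to 0.05), or -0.47 as deposited. At this low level the size depends on the pseudocount, and with one of 0.1 the change relative to the median gene was -0.46. At a minimum mean of 5 FPKM Glud1 was not tested. The limma unadjusted p was 0.0225 as deposited and 0.0422 after scaling, and the adjusted p was 0.776, so Glud1 did not pass over all genes. With single libraries left out its change lay between -0.36 and -0.32, the narrowest range among the 4 genes with the smallest p.

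Glul, glutamine synthetase, runs the opposite way and makes glutamine from glutamate. Glul (Entrez 14645, chromosome 1, 153899929 to 153909723) measured 31.6 and 28.5 FPKM in PERK KO, against 36.3 and 42.1 FPKM in PERK WT. Both knockout libraries were below both wild-type libraries, with a change of -0.23 (SE 0.16, 95% interval -0.61 to 0.14). The limma unadjusted p was 0.0523 as deposited and 0.0917 after scaling, and the adjusted p was 0.776. Without PERK WT replicate 2, the highest library for Glul, the change was -0.14, and without PERK WT replicate 1 it was -0.34. The ratio of Glul to Glud1 FPKM within each library was 12.6 and 12.8 in PERK KO, against 9.79 and 11.6 in PERK WT. In every library the listed level of Glul was therefore far above that of Glud1, and the higher ratios were those of PERK KO (exact permutation p = 0.333, the smallest possible). With a pseudocount of 1 the ratios were 9.31 and 9.17 in PERK KO, against 7.93 and 9.33 in PERK WT, and overlapped. Without PERK WT replicate 1 the log2 difference of the ratio was 0.13, against 0.26 with all libraries.

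The NADP-linked isocitrate dehydrogenases also yield alpha-ketoglutarate, Idh1 in the cytosol and Idh2 in mitochondria. Idh1 (Entrez 15926, chromosome 1, 65158616 to 65186479) measured 60.2 and 47.2 FPKM in PERK KO, against 67.3 and 67.8 FPKM in PERK WT. The PERK WT values were nearly equal, and both PERK KO values lay under them, before and after scaling. Its change was -0.20 (SE 0.18, 95% interval -0.62 to 0.23). The limma unadjusted p of Idh1 was 0.102 as deposited and 0.135 after scaling, and the adjusted p was 0.776. Idh2 measured 34.2 and 24.5 FPKM in PERK KO, against 35.4 and 31.5 FPKM in PERK WT, which overlapped, and its change was -0.06 (-0.53 to 0.40). The ratio of Idh2 to Idh1 FPKM was 0.567 and 0.519 in PERK KO, against 0.526 and 0.465 in PERK WT, and these values overlapped as well.

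The aminotransferases move amino groups between glutamate and other acids and release alpha-ketoglutarate from glutamate. Got1, the cytosolic aspartate aminotransferase, measured 19.9 and 14.00 FPKM in PERK KO, against 19.7 and 18.4 FPKM in PERK WT. Got2, its mitochondrial counterpart, measured 36.99 and 25.5 FPKM in PERK KO, against 37.5 and 33.4 FPKM in PERK WT. Gpt2, the mitochondrial alanine aminotransferase, measured 11.01 and 8.63 FPKM in PERK KO, against 11.1 and 11.3 FPKM in PERK WT. In all 3 genes PERK KO replicate 1 stood at the level of PERK WT and only PERK KO replicate 2 was low, although the genotypes of Gpt2 did not overlap as deposited. Their changes were -0.04, -0.06 and -0.04, with 95% intervals of -0.49 to 0.41, -0.55 to 0.43 and -0.42 to 0.34. The ratio of Got1 to Got2 was 0.537 and 0.549 in PERK KO, against 0.525 and 0.552 in PERK WT, the tightest of the 13 ratios between genotypes. Of the 9 genes whose enzymes yield alpha-ketoglutarate (Idh1, Idh2, Idh3a, Idh3b, Idh3g, Glud1, Got1, Got2 and Gpt2), limma called 0, and the median change was -0.06.

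**Figure D3:**
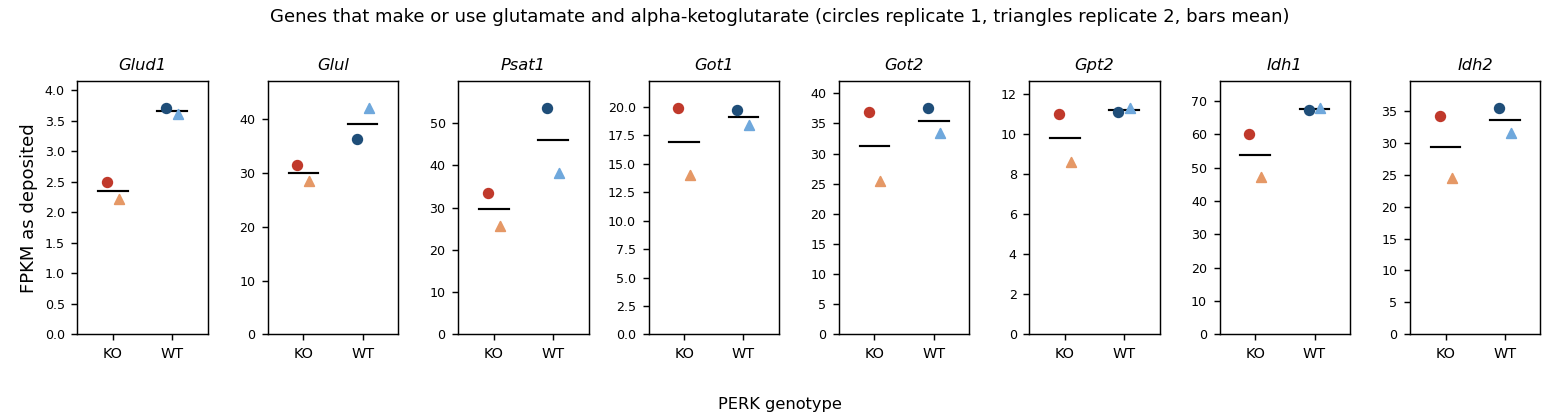
FPKM as deposited of 8 genes around glutamate and alpha-ketoglutarate, PERK KO left and PERK WT right in each panel, each panel on its own axis from 0, with circles for replicate 1, triangles for replicate 2 and bars for the mean of 2. Glud1, Glul, Idh1, Psat1 and, by a narrow gap, Gpt2 have both PERK KO libraries below both PERK WT libraries, while Got1, Got2 and Idh2 overlap.

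The 4 genes with the smallest limma p in the module were Glud1, Glul, Sucla2 and Idh1, and the 250 bases before their annotated starts are shown to set their promoters side by side. The sequences are from RefSeq, build GRCm38.p6, on the strand of the gene. They are the windows chr14:34310477-34310726, plus strand, for Glud1, chr1:153899679-153899928, plus strand, for Glul, chr14:73552536-73552785, plus strand, for Sucla2, and chr1:65186480-65186729, minus strand, for Idh1. Capitals mark the single match to the motifs described after the sequences.
Glud1: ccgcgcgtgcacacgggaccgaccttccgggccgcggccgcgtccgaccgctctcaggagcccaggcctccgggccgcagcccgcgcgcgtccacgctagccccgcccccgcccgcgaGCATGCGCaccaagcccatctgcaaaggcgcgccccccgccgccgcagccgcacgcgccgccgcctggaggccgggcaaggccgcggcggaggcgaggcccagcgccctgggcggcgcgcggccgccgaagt
Glul: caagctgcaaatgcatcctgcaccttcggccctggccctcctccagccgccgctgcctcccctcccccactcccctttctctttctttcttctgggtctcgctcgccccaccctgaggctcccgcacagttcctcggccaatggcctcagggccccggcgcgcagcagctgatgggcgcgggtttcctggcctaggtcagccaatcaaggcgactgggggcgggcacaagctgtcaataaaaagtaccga
Sucla2: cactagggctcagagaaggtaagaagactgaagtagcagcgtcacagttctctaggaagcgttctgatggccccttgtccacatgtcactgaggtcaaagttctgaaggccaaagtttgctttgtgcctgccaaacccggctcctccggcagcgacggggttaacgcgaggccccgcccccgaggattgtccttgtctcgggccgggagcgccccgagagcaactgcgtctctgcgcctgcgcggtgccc
Idh1: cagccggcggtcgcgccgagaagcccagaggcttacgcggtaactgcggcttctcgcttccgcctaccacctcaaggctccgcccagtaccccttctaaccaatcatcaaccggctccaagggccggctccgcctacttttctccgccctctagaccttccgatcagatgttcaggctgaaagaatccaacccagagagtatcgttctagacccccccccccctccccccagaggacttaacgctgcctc

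The Glud1 window was the richest of the 4 in G and C, at 82% of bases, against 64.8% for Glul, 61.2% for Sucla2 and 61.6% for Idh1. The windows of 29 members, Idh3a not among them, were searched on both strands for 4 motifs. The core of the NRF1 motif, GCATGCGC, was found before Glud1 and Ogdh, 2 of 29 members, and before 2.56% of 27025 genes with a sequence. The composite element bound by ATF4 with C/EBP proteins, TGATGNAA, was found before Got1 only, against 3.91% of all genes. The ERR element AAGGTCA was likewise found before Got1 only, against 4.7% of all genes, and the core of the antioxidant response element before none, against 2.8%. The match before Glud1 overlaps no other of these motifs. None of the 4 motifs stood before Glul, Sucla2 or Idh1 in these letters, and such matches are descriptions of sequence, not of binding.

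Mdh1, the cytosolic malate dehydrogenase of the malate shuttle, was listed at 0.82 and 0.71 FPKM in PERK KO, against 0.50 and 0.88 FPKM in PERK WT. The ratio of Mdh1 to Mdh2 FPKM was 0.0092 and 0.011 in PERK KO, against 0.0054 and 0.010 in PERK WT, and overlapped. Mdh1 was under the minimum mean and was not tested. Another 76534 listed features carry no Entrez number and could not be paired with genes. Whether they hold fragments of Mdh1, or of any other member, was not tested.

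Acod1 makes itaconate from the cycle intermediate cis-aconitate and is known as a gene of inflammatory rather than IL-4 activation. Acod1 (Entrez 16365, chromosome 14, 103047012 to 103056573) was low throughout, with 2.81 and 0.25 FPKM in PERK KO, against 0.52 and 0.55 FPKM in PERK WT. PERK KO replicate 1 alone was high, PERK KO replicate 2 was the lowest of the 4 libraries, and the genotypes overlapped. The change was 0.65 with the widest interval of the module (-0.53 to 1.83, limma adjusted p = 0.776). It was 1.37 without PERK KO replicate 2 but -0.08 without PERK KO replicate 1, so its sign rested on that library.

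Much of the lean to lower values lay in PERK KO replicate 2. As deposited it was the lowest of the 4 libraries for 26 of the 28 tested genes, against 60.8% of all tested genes. After median-ratio scaling it was lowest for 22 of 28, against 29.5% of all tested genes, and the highest for 1. The median deviation of the 28 genes from their own means after scaling was 0.06 and -0.14 in PERK KO replicates 1 and 2, against 0.07 and -0.01 in PERK WT. PERK KO replicate 1 thus sat with the wild-type libraries, and by these medians the 2 knockout libraries differed more from each other than the 2 wild-type libraries did. Among the 50 tested genes of the wider pathway the same deviations were 0.04 and -0.07 in PERK KO, against 0.04 and -0.01 in PERK WT. PERK KO replicate 2 is also the library with 41.1% of FPKM on genes with an Entrez number. The part of that composition in the lower values was not tested beyond the scaling.

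**Figure D4:**
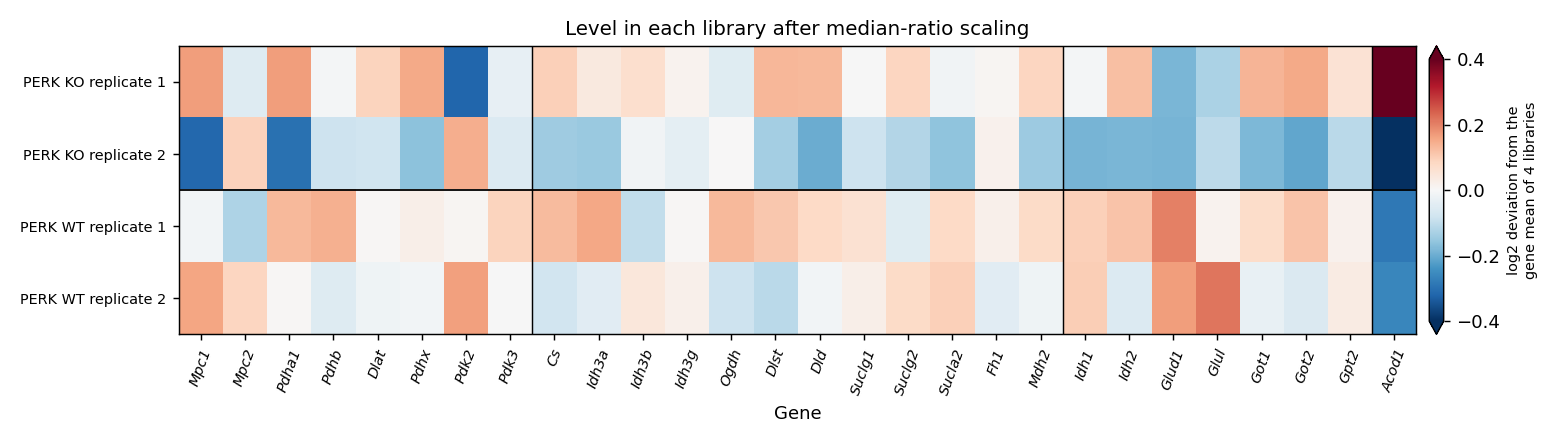
Level of the 28 tested genes in each library after median-ratio scaling, as the log2 deviation from the gene's mean over the 4 libraries (red higher, blue lower, colours capped at 0.4), with PERK KO rows above PERK WT rows. PERK KO replicate 2 is the lowest library for 22 of the 28 genes, and the genes blue in both PERK KO rows include Glud1 and Glul.

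Leaving out PERK KO replicate 2 moved the median change of the module to 0.05 and left 11 of 28 genes below the median gene. Leaving out PERK KO replicate 1 moved it to -0.15 with 24 below. For 7 genes the change stayed negative with each of the 4 libraries left out in turn (Glud1, Glul, Idh1, Sucla2, Suclg1, Idh3a and Pdk3), for 0 genes it stayed positive, and for the other 21 it took both signs. Without PERK KO replicate 2 the changes of Idh1, Sucla2, Suclg1 and Idh3a were -0.11, -0.10, -0.045 and -0.016, and without PERK KO replicate 1 they were -0.29, -0.25, -0.13 and -0.20. Without PERK WT replicate 1 they were -0.011 for Idh3a and -0.031 for Pdk3, and without PERK WT replicate 2 they were -0.21 and -0.12. Among all tested genes 21.1% stayed below the median gene in all 4 fits and 22.1% stayed above.

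**Figure D5:**
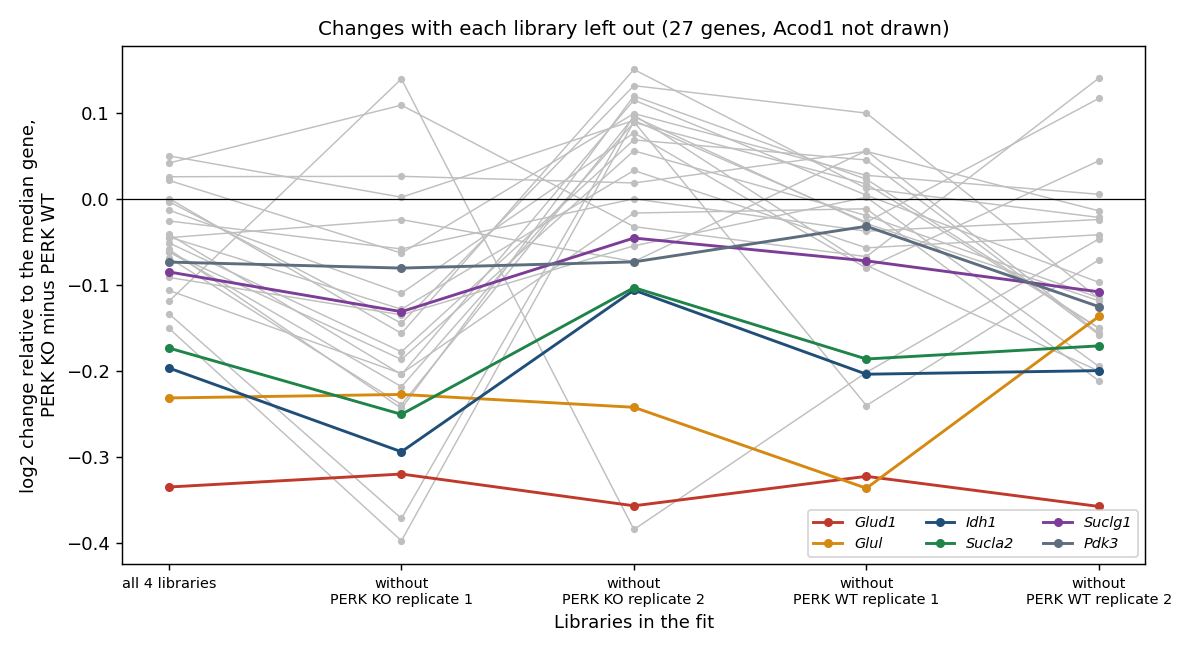
Log2 change relative to the median gene, PERK KO minus PERK WT, of 27 tested genes with all 4 libraries and with each library left out in turn (Acod1 is not drawn), with 6 genes in colour and the rest in grey. Most grey lines lie above 0 without PERK KO replicate 2, while the coloured genes Glud1, Glul, Idh1, Sucla2, Suclg1 and Pdk3 stay below 0 in all 5 positions.

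Read by overlap of the libraries, 11 of 28 genes had both PERK KO libraries below both PERK WT libraries as deposited and 0 had both above, against 35.6% and 4.14% of all tested genes. After median-ratio scaling 6 genes lay below and 0 above, against 15.3% and 14%. The 6 were Glud1, Glul, Idh1, Sucla2, Suclg1 and Pdk3, and none passed limma. Their changes ran from -0.33 for Glud1 to -0.07 for Pdk3.

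Ratios between related genes within a library add a reading that does not depend on scaling. Of 13 pairs, 2 did not overlap between genotypes, Suclg2 to Sucla2 and Glul to Glud1, both higher in PERK KO. Among the arrangements of an exact permutation of 2 libraries against 2, a share of 0.333 separates the groups. The count of 2 in 13 is not above that share. With a pseudocount of 1 only Suclg2 to Sucla2, 1 of 13, did not overlap. The ratio of Idh3a to Idh3b was 0.256 and 0.236 in PERK KO, against 0.314 and 0.245 in PERK WT, and overlapped. That of Idh1 to Idh3a was 3.98 and 4.03 in PERK KO, against 3.93 and 4.56 in PERK WT, and overlapped too. The listed level of cytosolic Idh1 was thus above that of the mitochondrial catalytic subunit in all 4 libraries. The ratio of Pdha1 to Pdhb was 1.08 and 0.819 in PERK KO, against 0.948 and 0.999 in PERK WT, and that of Mpc1 to Mpc2 3.26 and 2.08 in PERK KO, against 3.03 and 2.93 in PERK WT. In both pairs PERK KO replicate 2 had the lowest ratio and PERK KO replicate 1 the highest, so the genotypes overlapped. Every adjusted exact permutation p over the 13 ratios was 1.

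Of 69 other genes of the pathway (remaining enzymes, regulators, carriers and lipoylation factors), 50 were tested, and limma called 0 in either direction. At an unadjusted p under 0.05, 2 of the 50 were lower and 0 higher, against 3.52% and 0.705% of all tested genes. After median-ratio scaling 1 was lower and 1 higher, against 1.4% and 1.65%, since Psat1 then had an unadjusted p of 0.053. The median change was -0.04 with 31 below the median gene. The 2 genes lower as deposited were Pck2, mitochondrial phosphoenolpyruvate carboxykinase, which draws oxaloacetate out of the cycle, and Psat1, the serine synthesis aminotransferase, which releases alpha-ketoglutarate from glutamate. Pck2 measured 7.98 and 6.89 FPKM in PERK KO, against 12.3 and 10.1 FPKM in PERK WT, a change of -0.39 (SE 0.16, limma adjusted p = 0.776). Psat1 measured 33.5 and 25.7 FPKM in PERK KO, against 53.5 and 38.3 FPKM in PERK WT, a change of -0.47 (SE 0.22, limma adjusted p = 0.776). Both knockout libraries were the lower ones for each gene. With each library left out in turn the change ranged over -0.71 to -0.24 for Psat1 and -0.53 to -0.26 for Pck2, the smaller sizes being those without PERK WT replicate 1.

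The 4 succinate dehydrogenase subunits, which oxidise succinate in the cycle and in the respiratory chain, gave changes of -0.05 (Sdha), -0.16 (Sdhb), 0.07 (Sdhc) and 0.07 (Sdhd). Sdhb, the iron-sulfur subunit, was the lowest of these and measured 68.8 and 57.5 FPKM in PERK KO, against 72.8 and 83.2 FPKM in PERK WT. Its change was -0.26 without PERK WT replicate 1 and -0.075 without PERK WT replicate 2. Named after its values were seen, Bckdhb, a subunit of the branched-chain ketoacid dehydrogenase, measured 5.66 and 5.04 FPKM in PERK KO, against 4.25 and 3.85 FPKM in PERK WT. Its change was 0.47, with a limma unadjusted p of 0.0653 as deposited and 0.0151 after scaling, and it was the only tested gene of the wider list with all PERK KO values above all PERK WT values as deposited.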

How the data were processed

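Total RNA of macrophages, 2 libraries per genotype, was depleted of ribosomal RNA and sequenced as stranded, randomly primed libraries, per the labels' protocols. The authors deposited 1 table per library of FPKM, to 2 decimals, per the file headers. HISAT, StringTie, Bowtie2, RSEM and the mm10 build are named in the submitters' processing notes, without versions. The annotation, and whether counting used strand, are not given in the sources used here, and another annotated gene overlaps 12 of the 30 genes. The smallest value listed is 0.01 FPKM, and an unlisted gene was taken as 0. Entrez numbers were named from RefSeq on GRCm38.p6, the same assembly as mm10, and 15094 of 15114 matched. The members and lists were chosen with earlier results of these data known.

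Genes averaging 1 FPKM or more, 9501 in all, were compared as log2(FPKM + 1) by limma 3.58.1 in R 4.3.3, with a prior variance that follows the mean, two-sided, without a block, and Benjamini-Hochberg adjustment over all tested genes at 0.05. Ratios were taken without a pseudocount, where one of 1 had been planned and is given as an alternative, and tested by exact permutation over libraries. Values per library are as deposited unless called scaled. The procedure was tested on simulated data. These held no shift of a whole library, and their planted changes were larger than those of the members other than Acod1. They do not show how often changes as small as those of the members would be called. The labels do not say that libraries came from separate animals, so p-values measure only the spread between these libraries. Other scalings, filters, pseudocounts, a replicate block and each library left out were tried as alternatives. The text describes all 30 members, Pck2 and Psat1 as the other pathway genes with an unadjusted p under 0.05, and the succinate dehydrogenase subunits whatever their values. Results for some other named genes are not reported here. The lists held 15 transcripts of RNA quality, of which 4 were matched, summing to 74.1 to 75.5 FPKM in PERK KO, against 76.6 to 83.6 FPKM in PERK WT, and 6 IL-4 response genes, summing to 3157 to 4366 FPKM in PERK KO, against 3771 to 4350 FPKM in PERK WT. Of these 6, Arg1 was the highest, with 2412 and 1324 FPKM in PERK KO, against 1754 and 2061 FPKM in PERK WT. Chil3 was the lowest, with 6.93 and 2.26 FPKM in PERK KO, against 2.75 and 6.05 FPKM in PERK WT.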

Additional observations from a re-analysis of the deposited data

How the results depend on the processing

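With 2 libraries a genotype and no counts, the libraries limit every value. Limma called 0 of the members counted under each alternative run, 25 at a minimum mean of 5 FPKM and 28 otherwise. The fit without a filter on low values also held Mdh1 and Pcx, whose results are not reported here. Changes are relative to the median gene of the same fit. Without a filter on low values they were -0.039 (Mpc2), -0.059 (Dlat), -0.080 (Pdhx), -0.030 (Idh3b), -0.055 (Fh1), -0.012 (Sdhc) and -0.012 (Sdhd). Over all listed features they were -0.083, -0.10, -0.12, -0.074, -0.099, -0.056 and -0.056, in that order. The median gene itself stood at -0.06 and -0.02 in these fits, against -0.14 in the filtered one. Pdhx, near 0, gave -0.00020, -0.00045 and -0.00066 under median-ratio, upper-quartile and equal-Entrez-sum scaling and -0.00088 with a pseudocount of 0.1. Dlst gave 0.011, 0.011, 0.012 and 0.011, and 0.0090 at a minimum mean of 5 FPKM. Members with PERK KO wholly lower numbered 6, 6 and 5 under these scalings, with 1 wholly higher under the last. The log2 difference of the Pcx to Pdha1 ratio was 0.11 with a pseudocount of 1, against -0.09 without.

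Labels share replicate numbers between genotypes without saying what a number marks, and same-numbered libraries correlated at 0.07 in their deviations over all tested genes and 0.14 over the members. With a replicate block limma called 8 genes lower and 6 higher, and no member (lowest adjusted p 0.574). Among genes listed in all 4 libraries limma called 0, with 400 at an unadjusted p under 0.05.

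With each library left out in turn, a fit that assumes the lone library varies like the others, changes ranged from -0.40 to 0.090 (Mpc1), -0.067 to 0.14 (Mpc2), -0.37 to 0.098 (Pdha1), -0.19 to 0.0025 (Pdhb), -0.063 to 0.10 (Dlat), -0.16 to 0.15 (Pdhx), -0.38 to 0.14 (Pdk2), -0.18 to 0.069 (Cs), -0.027 to 0.12 (Idh3b), -0.058 to 0.00064 (Idh3g), -0.16 to 0.057 (Ogdh), -0.14 to 0.13 (Dlst), -0.24 to 0.096 (Dld) and -0.11 to 0.077 (Suclg2). They ranged from -0.013 to 0.056 (Fh1), -0.19 to 0.056 (Mdh2), -0.22 to 0.089 (Idh2), -0.20 to 0.12 (Got1), -0.24 to 0.12 (Got2), -0.13 to 0.034 (Gpt2), -0.081 to 1.37 (Acod1), -0.10 to 0.0035 (Sdha) and -0.022 to 0.15 (Sdhc). Log2 ratio differences ranged from -0.35 to 0.0071 (Idh3a/Idh3b), -0.21 to 0.019 (Idh3a/Idh3g), -0.22 to 0.69 (Pdk3/Pdk2), -0.52 to 0.13 (Mpc1/Mpc2), -0.023 to 0.049 (Got1/Got2), -0.046 to 0.86 (Mdh1/Mdh2), -0.25 to 0.16 (Pdha1/Pdhb), -0.19 to 0.030 (Idh1/Idh3a), -0.70 to 2.38 (Acod1/Cs) and -0.22 to 0.052 (Pcx/Pdha1). Over all tested genes limma called 2 to 4 lower and 0 to 39 higher, the 39 without PERK WT replicate 2. Members below the median gene numbered 11 to 24, members wholly lower 12 to 26 and wholly higher 0 to 4, where 44.03% to 69.7% and 9.74% to 21.3% of all tested genes were so. Without PERK KO replicate 1, 11 members had an unadjusted p under 0.05, against 12.2% of all tested genes. With median-ratio scaling as well, chosen after seeing the data, limma called 10 genes higher and 3 lower without PERK WT replicate 2. Members below the median gene were then 24, 11, 17 and 23 without PERK KO replicates 1 and 2 and PERK WT replicates 1 and 2. Members wholly lower were 23, 7, 8 and 11 and wholly higher 1, 14, 2 and 2, in that order, where 32.4% to 36.1% and 29.6% to 32.5% of all tested genes were so. The cause of these shifts was not tested.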
